A study of Homo sapiens with 13 samples.

Results

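The 38 genes described here act in glycolysis or in the response of cells to low oxygen and were chosen by symbol. They are 38 of the 60591 genes in the deposited table of read counts, and 37 of them passed the filter on low counts that left 19514 genes for testing. CA9, a carbonic anhydrase that is a common marker of hypoxic tumours, had 0 or 1 count in every library and was not tested. The counts come from RNA sequencing of 13 libraries of TE11, a cell line established from an oesophageal squamous cell carcinoma. Vehicle cells received 0.1% DMSO (4 libraries), and the other cells received 10 µM chloroquine (3 libraries), 25 µM 5-fluorouracil, 5-FU (3 libraries), or both drugs at these doses (3 libraries, called the combination). All groups were kept for 48 h, and the labels name no low-oxygen treatment in any group. No label describes the replicates as independent cultures. The p-values therefore measure the spread between these libraries, which may be technical, and all of them come from 1 cell line.

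Glycolysis turns glucose into pyruvate in the cytosol, and lactate dehydrogenase then turns pyruvate into lactate, which monocarboxylate transporters carry out of the cell. Pyruvate dehydrogenase kinases hold pyruvate back from the mitochondria by inhibiting the enzyme that would pass it on. When oxygen is short, the transcription factor HIF-1 accumulates, because its HIF1A subunit is no longer hydroxylated by EGLN enzymes and degraded. HIF-1 then binds the core sequence ACGTG or GCGTG in genes of glycolysis, blood vessel growth and mitochondrial turnover. Many tumour cells, those of squamous carcinomas among them, run glycolysis at a high rate also when oxygen is present. Chloroquine, a weak base, collects in lysosomes and stops autophagy late in its course. The antimetabolite 5-FU disturbs thymidylate synthesis and RNA metabolism.

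The libraries held 17834539 to 23679833 counts. Of these, 5 stood apart from the other 8: vehicle replicate 4, chloroquine replicates 1 and 2, 5-FU replicate 2 and combination replicate 2 held 153 to 741 counts of COL1A2, a fibroblast collagen, where the other 8 held 1 to 7. Summed over 10 fibroblast markers, these 5 reached 83.4 to 174 CPM (read counts scaled to a common library size with TMM factors, the unit of all levels below), against 48.3 to 102 CPM in the other 8. In these libraries other than combination replicate 2, markers of leukocytes summed to 16.2 to 23.2 CPM, against 3.60 to 7.36 CPM in the remaining 9. Those of exocrine pancreas summed to 7.51 to 15.4 CPM, against 0 to 0.165 CPM. Red cell markers reached 6.65 to 15.2 CPM in vehicle replicate 4 and chloroquine replicates 1 and 2 and 0.856 to 3.49 CPM elsewhere. Endothelial markers stood at 2.29 to 6.54 CPM over all 13 libraries. Of 20 squamous markers, 13 to 16 had at most 10 counts in each library, SPRR1B had none in any, and KRT5 and TP63, which define basal squamous cells, reached at most 2 and 3 counts. DSC3 and PERP, both genes of desmosomes, had 2063 to 4113 and 2413 to 6890 counts, and no other marker of the list exceeded 74 counts. The sum over the 20 markers, nearly all from DSC3 and PERP, was higher in the combination (462 to 486 CPM) than in the other groups (257 to 345 CPM). The part of these transcripts in the results on the 38 genes was not tested directly. Every comparison was repeated in the 8 libraries and in the 5 alone, and calls lost in the 8 are named with each comparison. All 13 libraries were also fitted with a term for the 5. With this term PKM lost its call with chloroquine (log2 fold change -0.11), and ALDOC lost that in the combination against chloroquine (0.22). ALDOA gained calls with chloroquine (0.22) and with 5-FU (-0.19), and SLC2A1 in the combination against 5-FU (-0.16). GPI and LDHB gained calls in the combination against chloroquine (both -0.23). The 5 hold 2 chloroquine libraries and 1 of each other group, so the spread in their fit rests on that chloroquine pair alone and a call lost or kept there says nothing of its stability. It is counted among the other fits below, and 3 calls were lost in it and in no other fit: EGLN3 with 5-FU, and ANKRD37 and PFKFB3 in the combination against 5-FU.

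Promoter windows were at hand for 34 of the 38 genes (RefSeq, GRCh38.p14), 62 windows in all because several genes have more than 1 start. SLC2A3, VEGFA, BNIP3L and NDRG1 had none. The HIF-1 core, ACGTG or GCGTG on either strand, stood within the 250 bases before the start in 37 of these 62 windows (59.68%) and in 15172 of all 35116 windows (43.21%). ACGTG alone was in 38.71% of the windows of these genes and in 18.51% of all, and the E-box CACGTG, which contains ACGTG on both strands and is also read by MYC, was in 12.9% against 6.345%. Stretches are shown for genes whose RNA fell with 5-FU, for a pair that rose with it, for PFKL, which was lower in the combination than with 5-FU, and for ANKRD37, which rose with chloroquine. Capitals mark the core, its reverse complement (CACGT or CACGC) or the E-box, and each stretch is written 5′ to 3′ on the strand of the gene.
PDK1, chr2:172556060-172556089, plus strand: ccctgctgcccgcCACGTccctCACGTacc
LDHA, chr11:18394366-18394395, plus strand: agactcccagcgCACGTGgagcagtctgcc
LDHA, chr11:18394470-18394499, plus strand: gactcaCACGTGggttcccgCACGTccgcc
HK2, chr2:74834063-74834092, plus strand: agccaatggGCGTGcgCACGTcactgatcc
HK2, chr2:74834964-74834993, plus strand: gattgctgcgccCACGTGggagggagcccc
ALDOC, chr17:28577116-28577145, minus strand: aagtgcccggCACGTGgtaaagggattgtg
ENO2, chr12:6914449-6914478, plus strand: cacccgcgctcgtACGTGcgcctccgccgg
PFKL, chr21:44299876-44299905, plus strand: ctgctcagggcccGCGTGacattgcacagg
ANKRD37, chr4:185396676-185396705, plus strand: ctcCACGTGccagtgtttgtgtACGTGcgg
The core stands in promoter windows of PDK1, LDHA and HK2 as well as in those of ALDOC and ENO2, whose RNA moved the other way with 5-FU. Another window of PDK1 held none. No window of SLC2A1, PGAM1, PKM or LDHB, which fell with 5-FU, held the core. Those of EGLN3 and P4HA2, which rose with it, held none either. A match describes the letters in the window and does not show binding. The 38 genes were chosen as glycolytic enzymes and HIF-1 targets, so shares above those of all windows may follow from that choice. Windows of the same gene can also overlap and share a site, as those of KDM3A do.

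Per kilobase of exon, GAPDH, ENO1 and TPI1 were the most abundant of the 38 genes in vehicle cells. GAPDH, of the second stage of glycolysis, stood at 564 ± 12.9 CPM per kb, ENO1, of the same stage, at 445 ± 11.5 and TPI1, of the first stage, at 343 ± 19.1, followed by PKM at 228 ± 7.28, PGAM1 at 188 ± 6.06 and PGK1 at 126 ± 3.14 (mean ± SD, n = 4). The lactate dehydrogenases came next, LDHA at 90.8 ± 1.36 and LDHB at 80.2 ± 9.93 CPM per kb, a gap close to the SD of LDHB. GPI at 32.6 ± 1.48 and HK1 at 32.6 ± 1.07 CPM per kb lay within their spread of each other. Without correction for length, the lowest tested members were SLC16A3, ANKRD37 and MIR210HG, whose vehicle libraries lay at 1.61 to 2.00, 1.5 to 1.92 and 0.285 to 0.516 CPM. In what follows, ± gives the SD over the 4 vehicle or 3 treated libraries for levels and shares, and the standard error for log2 fold changes.

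**Figure D1:**
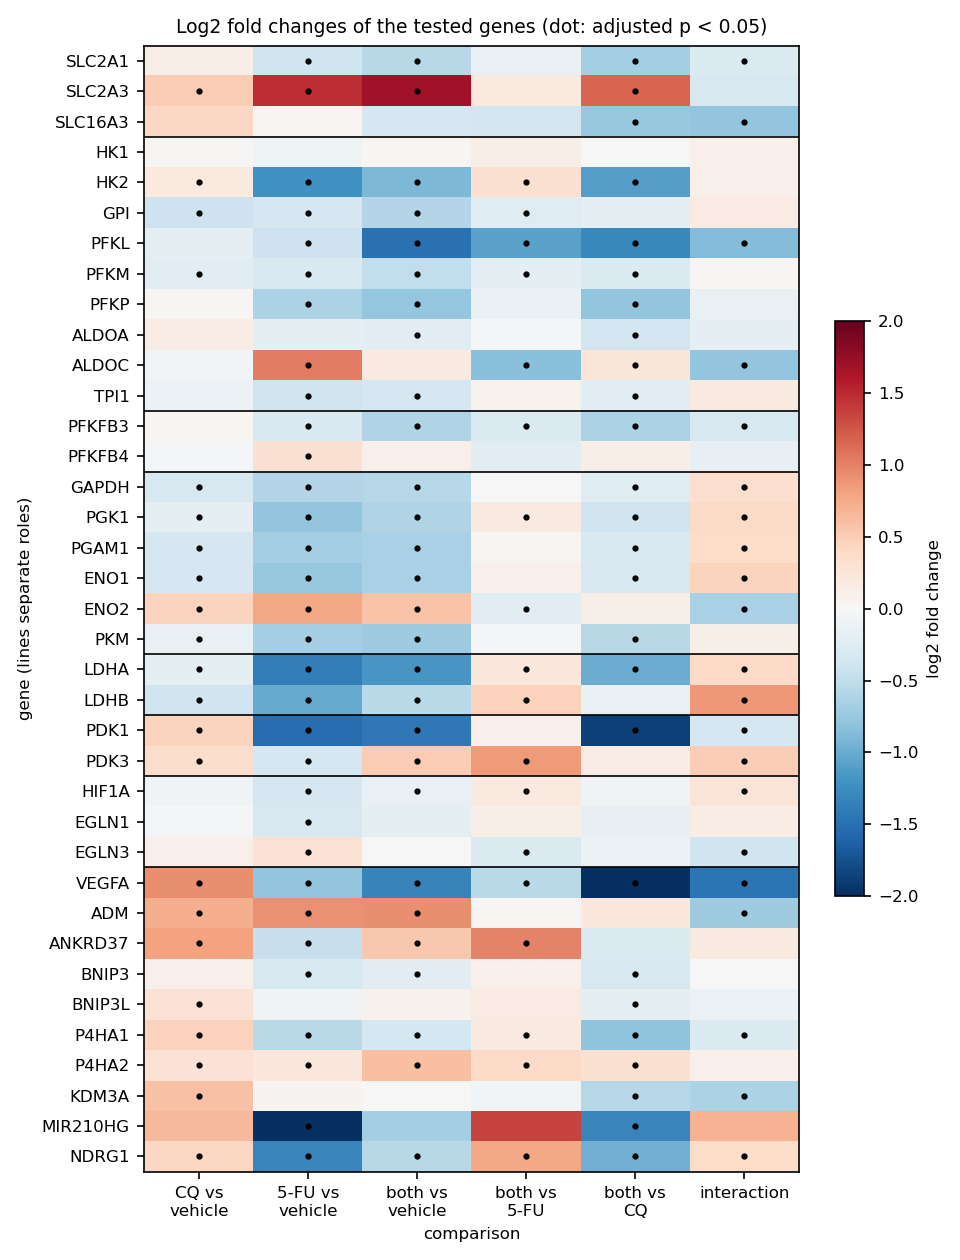
Log2 fold changes of the 37 tested genes (rows, in the order of their roles) in the 5 comparisons between groups and in the interaction (columns); red is higher in the first-named group, blue lower, and a dot marks an adjusted p under 0.05. The column of 5-FU against vehicle is mostly blue (25 genes fell, 7 rose), with SLC2A3, ALDOC, ADM and ENO2 in red. Chloroquine against vehicle has most of its dotted reds among the hypoxia targets at the bottom, and SLC2A3, HK2, ENO2, PDK1 and PDK3 also rose.

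With 5-FU, the RNA of most glycolytic enzymes and of several hypoxia targets was lower than in vehicle cells after 48 h. Of the 37 genes, 25 fell, 7 rose and 5 did not pass (edgeR quasi-likelihood test, Benjamini-Hochberg adjusted p under 0.05), while 60.3% of all tested genes were called, 30.8% up and 29.5% down. The median log2 fold change was -0.35 for the 37 genes and 0.01 for all genes. Of the called genes, 8 changed by at least 1 on the log2 scale: MIR210HG, PDK1, LDHA, NDRG1, HK2 and LDHB fell, and SLC2A3 and ALDOC rose. Of all 19514 tested genes, 2735 were called with a change of that size. Levels are relative to the other RNA of a library, and in these bulk samples fewer cells of a type and less RNA of a gene per cell cannot be told apart. By role, 13 of the 17 enzymes of the glycolytic steps and lactate dehydrogenase fell, both pyruvate dehydrogenase kinases fell, and of the 10 hypoxia targets tested 6 fell and 2 rose. In all 25 other fits that tested them, 20 of the 32 calls held (16 down, 4 up). Scaling by library size alone, which shifts the median of all genes to 0.20, left 16 down and 8 up and ended the falls of GPI, PFKL, PFKM, PFKFB3, PDK3, ANKRD37, BNIP3, EGLN1 and HIF1A. In the 8 libraries without tissue transcripts EGLN1 was lost.

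With chloroquine alone, the members grouped here as hypoxia targets and the enzyme genes moved apart. This group leaves out the genes of glycolysis, PDK1 and EGLN3, although HIF-1 acts on such genes too. The targets in the group were higher than in vehicle cells (8 of 10 rose, none fell, median 0.52), and both pyruvate dehydrogenase kinases rose. Of the 17 enzymes 9 fell and 2, HK2 and ENO2, rose, and EGLN3 did not pass (0.10). Over all 37 genes 13 rose, 9 fell and 15 did not pass, where 39.4% of all tested genes were called, 20.3% up and 19.1% down; the median was 0.09 against 0.02 for all genes. No change reached 1 on the log2 scale, where 962 of the 19514 tested genes were called at that size. The highest was VEGFA at 0.92. Scaled by library size alone, which shifts the median of all genes to 0.12, 18 rose and 5 fell, and the falls of PFKM, PGK1, PKM and LDHA did not pass. In the 8 libraries without tissue transcripts, which leave 1 chloroquine library that is assumed to vary like the others, SLC2A3, HK2, PKM, LDHA, LDHB and P4HA2 did not pass and 16 calls were left.

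In the combination, the set looked much as it did with 5-FU, with some genes lower still and others back above vehicle. Against vehicle, 22 of the 37 genes fell, 6 rose (SLC2A3, ADM, P4HA2, ENO2, ANKRD37 and PDK3) and 9 did not pass; 55.4% of all genes were called, 28.1% up and 27.2% down, with medians of -0.34 and 0.01. Against chloroquine alone, 23 fell, 3 rose (SLC2A3, P4HA2 and ALDOC) and 11 did not pass; 50.6% of all genes were called, 24.8% up and 25.7% down, with medians of -0.31 and -0.01. Both comparisons use the same combination libraries. The calls held in all 25 other fits that tested them for 24 of 28 genes against vehicle and for 19 of 26 against chloroquine. In the 8 libraries without tissue transcripts, ALDOA and HIF1A were lost against vehicle and ALDOC, GAPDH, SLC16A3, P4HA2 and MIR210HG against chloroquine. The rise of ALDOC against chloroquine, 0.24, was also lost without chloroquine replicate 2 or combination replicate 1 or 3. Under library size alone the split against vehicle was 10 up and 19 down, with a median of 0.15 over all genes.

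The combination against 5-FU addresses the question in the study's title, what chloroquine adds to 5-FU. Fewer of the 37 genes changed here, and in both directions. Against 5-FU alone, 10 rose in the combination, 8 fell and 19 did not pass, where 38.5% of all tested genes were called, 20.2% up and 18.3% down; the medians were 0.06 and 0.02. The larger changes were ANKRD37, PDK3 and NDRG1 upward and PFKL, ALDOC and VEGFA downward. Same-numbered 5-FU and combination libraries deviated together (correlations of 0.341, 0.743 and 0.339), so the numbers were taken to pair them here. No label gives a pairing, and the highest value is that of the replicate 2 libraries, which both hold tissue transcripts. Between the other groups, same-numbered libraries had correlations of -0.448 to 0.521. A fit of these 6 libraries with the replicate number as a block called 12 of the genes, 6 up and 6 down, and did not call PFKM, PGK1, ENO2, LDHA, P4HA1 and HIF1A. In the 8 libraries without tissue transcripts PGK1 and EGLN3 did not pass. The 8 calls that held in every fit that tested them were HK2, LDHB, PDK3, P4HA2 and NDRG1, which rose, and PFKL, ALDOC and VEGFA, which fell.

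**Figure D2:**
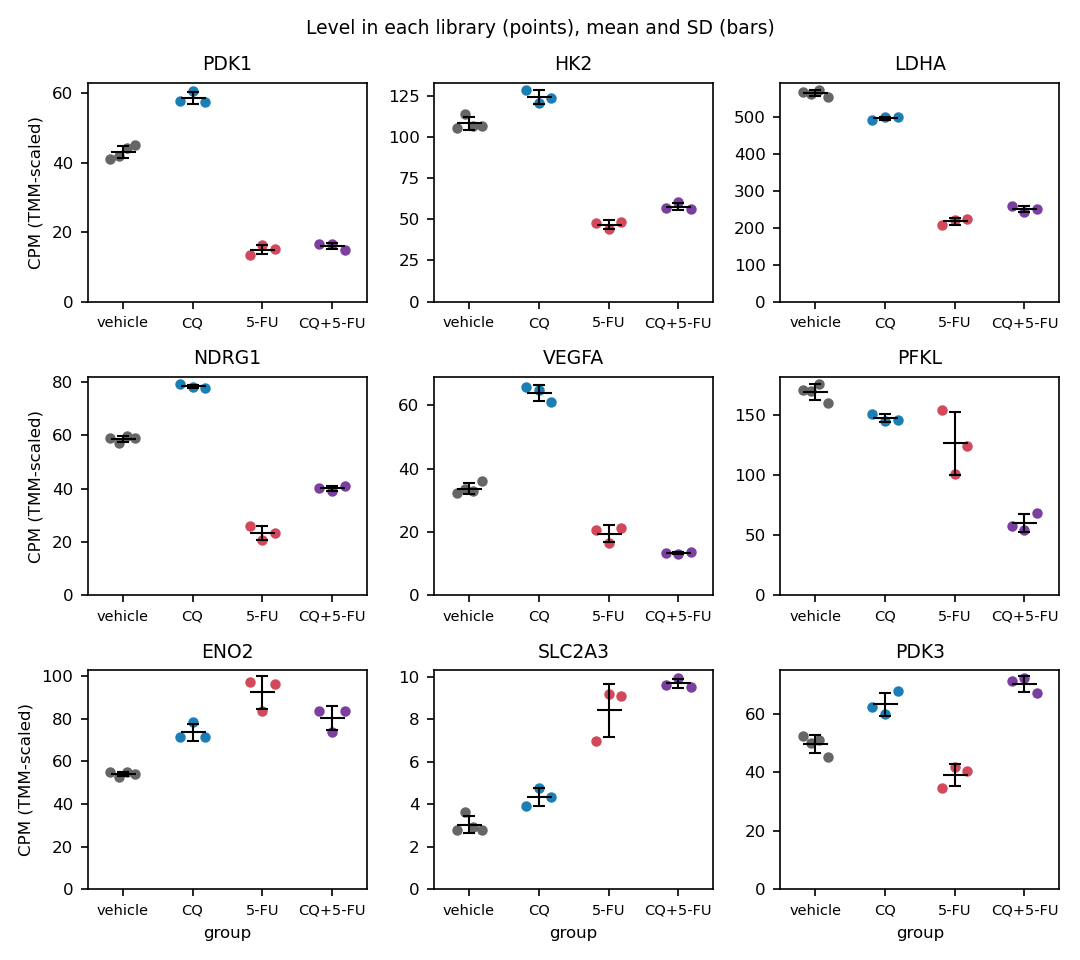
TMM-scaled CPM (vertical axis, starting at 0 and differing between panels) of 9 genes in each library (points) of the 4 groups, with the group mean and SD as bars. PDK1, HK2, LDHA and NDRG1 were low in every 5-FU and combination library, VEGFA and NDRG1 were highest with chloroquine alone, and PFKL was lowest in the combination.

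Among the glucose carriers, the basal carrier SLC2A1 (GLUT1) fell and the high-affinity carrier SLC2A3 (GLUT3) rose with 5-FU. SLC2A1 stood at 90.1, 92.0, 96.2 and 92.9 CPM in the vehicle libraries, 102, 106 and 98.5 with chloroquine, 77.2, 65.0 and 70.0 with 5-FU and 62.7, 64.3 and 63.4 in the combination, so that no 5-FU or combination library reached a vehicle one. Its log2 fold change against vehicle was -0.39 ± 0.0575 (adjusted p = 3.76e-05) with 5-FU and -0.55 ± 0.0579 (adjusted p = 1.92e-06) in the combination; with 5-FU it came to -0.20 under library size alone. SLC2A3 went from 2.80, 3.65, 2.92 and 2.78 CPM with vehicle to 3.90, 4.75 and 4.35 with chloroquine, 6.97, 9.20 and 9.09 with 5-FU and 9.61, 9.93 and 9.52 with both. Every library of each treated group lay above all vehicle libraries, by log2 fold changes of 0.51 ± 0.132 (adjusted p = 0.00675), 1.47 ± 0.124 (adjusted p = 1.60e-07) and 1.67 ± 0.123 (adjusted p = 5.63e-08). Per length, SLC2A3 made up 2.45% ± 0.337 of the summed RNA of these 2 carriers with vehicle and 10.5% ± 0.134 in the combination. The lactate exporter SLC16A3 (MCT4) was near the floor of detection, at 1.08 to 2.71 CPM over all libraries, and it lies opposite the far more abundant CSNK1D, from which reads cannot be told apart if strand was not used. It passed only in the combination against chloroquine at -0.75 ± 0.199 (adjusted p = 0.00571) and in the interaction, and in the 8 libraries without tissue transcripts these came to -0.32 for both and did not pass.

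Hexokinases, which trap glucose in the cell as its phosphate, split by isoform. HK2, the inducible form, stood at 105, 114, 107 and 107 CPM with vehicle, 128, 120.4 and 124 with chloroquine, 48.0, 43.8 and 48.6 with 5-FU and 56.9, 60.2 and 55.9 with both. The 5-FU libraries were the lowest, the combination libraries lay between them and vehicle, and no group overlapped another. The log2 fold change was -1.21 ± 0.0549 (adjusted p = 4.40e-10) for 5-FU, -0.91 ± 0.0540 (adjusted p = 7.16e-09) for the combination and 0.30 ± 0.0581 (adjusted p = 0.000942) between these 2. The rise with chloroquine alone was 0.20 ± 0.0519 (adjusted p = 0.00715), and it did not pass in the 8 libraries (0.18). HK1, the widely expressed form, was at 205 ± 6.76 CPM with vehicle, 209.5 ± 15.2 with chloroquine, 194 ± 17.8 with 5-FU and 212 ± 12.7 with both, and it passed in none of the 6 comparisons. Per length, HK2 gave 35.3% ± 0.272 of the RNA of these 2 hexokinases with vehicle, 20.05% ± 0.904 with 5-FU and 22.1% ± 1.73 with both.

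Phosphofructokinase commits sugar to glycolysis, and its liver form PFKL was much lower in the combination than with either drug alone. PFKL stood at 171, 170.2, 176 and 159.9 CPM with vehicle, 151, 145 and 146 with chloroquine, 154, 101 and 124 with 5-FU and 58.0, 54.5 and 68.4 in the combination. The 5-FU libraries were spread widely, and every combination library was well below the lowest of them. Its log2 fold change was -0.20 ± 0.108 (adjusted p = 0.164) with chloroquine, which did not pass, -0.42 ± 0.109 (adjusted p = 0.00378) with 5-FU and -1.49 ± 0.114 (adjusted p = 8.11e-08) with both. All chloroquine libraries lay below vehicle, and the fall with chloroquine passed in some other fits, such as that of these groups alone (-0.19). The combination differed from 5-FU by -1.07 ± 0.119 (adjusted p = 1.13e-05) and from chloroquine by -1.29 ± 0.119 (adjusted p = 7.64e-07). The platelet form PFKP fell with 5-FU (-0.64 ± 0.0711, adjusted p = 2.54e-06) and in the combination (-0.78 ± 0.0716, adjusted p = 4.74e-07). The muscle form PFKM was at -0.30 ± 0.0574 (adjusted p = 0.000384) with 5-FU and -0.49 ± 0.0578 (adjusted p = 5.24e-06) in the combination. Its fall with chloroquine (-0.21 ± 0.0573, adjusted p = 0.00896) was -0.12 and did not pass under library size alone. PFKM overlaps SENP1 on the opposite strand, and the strand setting of the counting is unknown here. Per length, PFKL was 36.2% ± 0.551 of the RNA of the 3 forms with vehicle, 36.3% ± 2.63 with 5-FU and 23.5% ± 1.54 in the combination, where PFKM reached 46.3% ± 1.59.

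The aldolases ALDOA and ALDOC and the isomerases GPI and TPI1 are the remaining enzymes of upper glycolysis. ALDOC, an isoform best known from brain, stood at 7.58, 6.79, 7.05 and 7.73 CPM with vehicle, 7.34, 6.29 and 7.46 with chloroquine, 15.6, 14 and 14.9 with 5-FU and 8.27, 7.96 and 8.67 with both. It rose 2.03-fold with 5-FU, with all 3 libraries above vehicle (1.02 ± 0.0792, adjusted p = 6.97e-08 on the log2 scale). In the combination it was back near the vehicle level and differed from 5-FU by -0.84 ± 0.0837 (adjusted p = 4.63e-06). ALDOA, the main isoform, overlaps the protein-coding AC093512.2 on the same strand, and how reads of both were counted is unknown here. ALDOA was at 69.1 ± 3.07 CPM with vehicle, 76.7 ± 1.01 with chloroquine, 60.5 ± 8.39 with 5-FU and 59.5 ± 5.61 with both. It fell in the combination (-0.22 ± 0.0840, adjusted p = 0.0406), a call lost in 9 of the 25 other fits, among them those without vehicle replicate 1, 2 or 3, chloroquine replicate 2, or combination replicate 1 or 2. GPI, the isomerase, fell with chloroquine (-0.41 ± 0.0819, adjusted p = 0.00129), with 5-FU (-0.34 ± 0.0816, adjusted p = 0.00238) and with both (-0.58 ± 0.0822, adjusted p = 3.05e-05). TPI1, triosephosphate isomerase, fell with 5-FU (-0.40 ± 0.0678, adjusted p = 0.000129) and with both (-0.34 ± 0.0677, adjusted p = 0.000639); under library size alone these came to -0.21 and -0.19. Pseudogenes named for it held 26.5% of the summed counts, so part of its reads may be misplaced.

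The kinases that make fructose 2,6-bisphosphate, an activator of phosphofructokinase, differed from each other. PFKFB3 was at 61.7, 62.8, 60.6 and 58.2 CPM with vehicle, 61.4, 61.0 and 64.3 with chloroquine, 55.0, 42.2 and 50.2 with 5-FU and 39.1, 39.2 and 41.9 in the combination. It was lowest in the 3 combination libraries, at a log2 fold change of -0.60 ± 0.0745 (adjusted p = 8.87e-06) against vehicle and -0.29 ± 0.0790 (adjusted p = 0.00883) against 5-FU. PFKFB4 lay between 8.93 and 14.2 CPM in all libraries; its rise with 5-FU (0.31 ± 0.0933, adjusted p = 0.0101) was 0.21 and did not pass without 5-FU replicate 1, and it was 0.01 in the 5 libraries with tissue transcripts.

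In lower glycolysis, which yields the ATP and pyruvate, 5 of 6 genes fell with each drug and with both, and ENO2 rose. ENO1, the main enolase, stood at 2395, 2358, 2373 and 2258 CPM with vehicle, 1848, 1843 and 1899.9 with chloroquine, 1534, 1226 and 1395 with 5-FU and 1484, 1440.0 and 1555 with both. All chloroquine libraries were below all vehicle libraries and above all libraries that had received 5-FU. Its log2 fold changes were -0.33 ± 0.0570 (adjusted p = 0.000392), -0.76 ± 0.0577 (adjusted p = 5.83e-08) and -0.65 ± 0.0575 (adjusted p = 3.15e-07). ENO2, the enolase named for neurons, went the other way, from 55.0, 52.7, 54.8 and 54.1 CPM with vehicle to 71.6, 78.3 and 71.3 with chloroquine, 97.5, 83.6 and 96.6 with 5-FU and 83.6, 73.8 and 83.5 with both. The 3 treated groups were all above vehicle, by 0.45 ± 0.0663 (adjusted p = 0.000122), 0.77 ± 0.0655 (adjusted p = 1.71e-07) and 0.57 ± 0.0659 (adjusted p = 4.70e-06). Per length, ENO2 nonetheless gave only 2.77% ± 0.0790 of the enolase RNA with vehicle and 7.63% ± 0.318 with 5-FU.

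PGK1, phosphoglycerate kinase, was at 695 ± 17.3 CPM with vehicle, 607 ± 21.2 with chloroquine, 404 ± 13.2 with 5-FU and 459 ± 11.9 with both. Its log2 fold change was -0.78 ± 0.0404 (adjusted p = 1.46e-09) for 5-FU, and PGAM4 lies within the gene on the other strand. GAPDH, often used as a reference gene, fell with chloroquine (-0.32 ± 0.0582, adjusted p = 0.000543), with 5-FU (-0.58 ± 0.0585, adjusted p = 9.28e-07) and with both (-0.57 ± 0.0585, adjusted p = 1.36e-06). Pseudogenes named for it held 12.6% of the summed counts. PGAM1, the mutase, fell by like amounts: -0.34 ± 0.0407 (adjusted p = 1.81e-05), -0.68 ± 0.0411 (adjusted p = 6.14e-09) and -0.65 ± 0.0410 (adjusted p = 1.21e-08). PKM, pyruvate kinase, fell with 5-FU (-0.66 ± 0.0561, adjusted p = 1.65e-07) and with both (-0.70 ± 0.0562, adjusted p = 1.20e-07). Its call with chloroquine (-0.15 ± 0.0554, adjusted p = 0.0402) was lost in 10 of the 25 other fits, among them those without vehicle replicate 1, 2 or 3 and without chloroquine replicate 1 or 2. Counts of these genes include both splice forms of PKM, which the table does not separate.

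**Figure D3:**
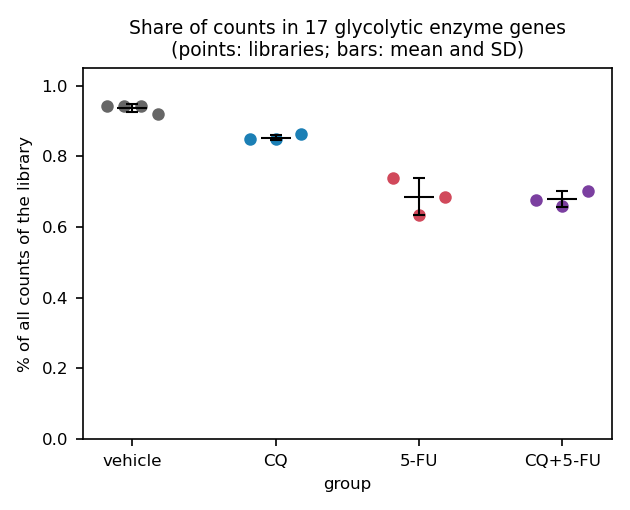
Share of all counts of a library (vertical axis, percent, starting at 0) that fell on the 17 genes for the enzymes of the glycolytic steps and lactate dehydrogenase, by group; points are libraries, bars the mean and SD. Vehicle libraries lie at 0.920% to 0.943%, chloroquine at 0.848% to 0.862% and both groups with 5-FU at 0.634% to 0.738%.

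Added up, the 17 enzyme genes took 0.937% ± 0.0112 of all counts with vehicle (SD, n = 4), 0.853% ± 0.00795 with chloroquine, 0.686% ± 0.0521 with 5-FU and 0.679% ± 0.0223 with both (n = 3 each). The vehicle and chloroquine libraries did not overlap each other or the libraries with 5-FU, while the 5-FU and combination libraries overlapped. These shares are set mainly by ENO1, PKM and GAPDH, which hold most of the counts, and they were not tested.

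Both lactate dehydrogenase genes fell with 5-FU. LDHA, whose subunit favours the making of lactate, stood at 568, 561, 573 and 554 CPM with vehicle, 492, 498 and 499 with chloroquine, 206, 221 and 223 with 5-FU and 259.8, 243 and 249 with both. The 4 groups did not overlap, and the 5-FU libraries were the lowest. Log2 fold changes were -0.18 ± 0.0399 (adjusted p = 0.00219) with chloroquine, -1.38 ± 0.0415 (adjusted p = 1.09e-11) with 5-FU, and -1.17 ± 0.0412 (adjusted p = 4.95e-11) with both. The first did not pass in the 8 libraries without tissue transcripts (-0.19) or under library size alone (-0.09). For the combination against 5-FU the value was 0.21 ± 0.0430 (adjusted p = 0.00155), and with the replicate block it was 0.19 and did not pass. LDHB, whose subunit favours the use of lactate, went from 265, 257, 237 and 198 CPM with vehicle to 173, 157 and 216 with chloroquine, 125, 109 and 123 with 5-FU and 163, 153 and 178 with both. Its vehicle and chloroquine libraries overlapped, and the fall with chloroquine (-0.39 ± 0.110, adjusted p = 0.0112) did not pass without chloroquine replicate 1 (-0.36) or 2 (-0.30), or in the 8 libraries (-0.23). It fell with 5-FU (-1.01 ± 0.113, adjusted p = 2.72e-06) and less in the combination (-0.54 ± 0.111, adjusted p = 0.000808), which was above 5-FU by 0.47 ± 0.118 (adjusted p = 0.00611).

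The pyruvate dehydrogenase kinases PDK1 and PDK3 rose together with chloroquine and parted in the combination. PDK1, the kinase best known as a HIF-1 target, stood at 41.2, 41.9, 44.2 and 45 CPM with vehicle, 57.8, 60.6 and 57.5 with chloroquine, 13.5, 16.2 and 15.2 with 5-FU and 16.6, 16.6 and 14.9 with both. Every chloroquine library was above, and every library with 5-FU far below, the vehicle libraries. The rise with chloroquine was 0.45 ± 0.0615 (adjusted p = 6.49e-05), and PDK1 was lower in the combination than in vehicle by -1.43 ± 0.0681 (adjusted p = 8.39e-10) and than in chloroquine by -1.87 ± 0.0708 (adjusted p = 2.32e-10). PDK3 went from 52.4, 49.99, 50.9 and 45.1 CPM with vehicle to 62.2, 59.9 and 67.6 with chloroquine, 34.7, 41.8 and 40.4 with 5-FU and 71.2, 72.2 and 67.1 with both. The combination and chloroquine ranges overlapped and both lay above vehicle, while 5-FU lay below it. The combination differed from vehicle by 0.50 ± 0.0714 (adjusted p = 3.39e-05) and from 5-FU by 0.85 ± 0.0774 (adjusted p = 2.07e-06). The fall of PDK3 with 5-FU (-0.35 ± 0.0740, adjusted p = 0.000949) came to -0.15 under library size alone and did not pass, and it was -0.11 between the single libraries of the 5 with tissue transcripts. Per length, PDK1 was 22.5% ± 1.78 of the RNA of the 2 kinases with vehicle, 11.3% ± 0.204 with 5-FU and 7.05% ± 0.163 with both.

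HIF1A itself, the oxygen-regulated subunit, had lower RNA with 5-FU and did not pass with chloroquine. It stood at 137, 139, 144 and 147 CPM with vehicle, 136, 132 and 135 with chloroquine, 106, 117 and 114 with 5-FU and 139, 128 and 118 with both. The 5-FU libraries were below all vehicle libraries, and the combination libraries ran from just above the 5-FU range up into the vehicle range. It fell with 5-FU (-0.34 ± 0.0572, adjusted p = 0.000146; -0.14 and not passing under library size alone). The call in the combination (-0.15 ± 0.0569, adjusted p = 0.0416) was lost in 10 of 25 other fits, among them those without vehicle replicate 2, 3 or 4 or combination replicate 2 or 3. EGLN1, the main HIF prolyl hydroxylase, was at 46.7 ± 3.55 CPM with vehicle and 37.6 ± 6.96 with 5-FU (-0.32 ± 0.0972, adjusted p = 0.0113). This call was lost without 5-FU replicate 2 (-0.24) or 3 (-0.26) and in the 8 libraries (-0.23), and without 5-FU replicate 1 the value was -0.48. EGLN3, the hydroxylase that is itself a HIF target, rose with 5-FU (0.28 ± 0.0654, adjusted p = 0.00174) and was lower in the combination than with 5-FU (-0.29 ± 0.0694, adjusted p = 0.00411). The first came to 0.48 under library size alone, and the second did not pass in the 8 libraries (-0.29). EGLN3, at a mean of 206 counts, overlaps the protein-coding SPTSSA, at 972 counts, on the same strand. How reads of both were counted is unknown here. HIF1A protein was not measured.

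VEGFA, the growth factor of blood vessels, moved in opposite directions with the 2 drugs. It stood at 32.2, 33.4, 33.1 and 36.1 CPM with vehicle, 65.7, 64.8 and 61.1 with chloroquine, 20.7, 16.4 and 21.4 with 5-FU and 13.4, 13.2 and 13.5 in the combination. The 4 groups did not overlap, with chloroquine the highest and the combination the lowest. The log2 fold change was 0.92 ± 0.0737 (adjusted p = 6.32e-07) with chloroquine, -0.79 ± 0.0799 (adjusted p = 9.91e-07) with 5-FU and -1.33 ± 0.0834 (adjusted p = 1.12e-08) with both. Chloroquine on top of 5-FU lowered it by a log2 fold change of -0.54 ± 0.0898 (adjusted p = 0.000290), which was -0.31 in the 5 libraries with tissue transcripts.

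NDRG1, a stress-induced gene that hypoxia raises, was at 58.9, 57.3, 59.8 and 59.0 CPM with vehicle, 79.1, 78.2 and 77.9 with chloroquine, 26.1, 20.9 and 23.4 with 5-FU and 40.2, 39.2 and 41.2 with both. No group overlapped another: chloroquine lay above vehicle (0.42 ± 0.0589, adjusted p = 8.01e-05) and 5-FU below it (-1.32 ± 0.0642, adjusted p = 7.93e-10). The combination lay between 5-FU and vehicle, below vehicle (-0.55 ± 0.0611, adjusted p = 3.19e-06) and above 5-FU (0.78 ± 0.0678, adjusted p = 1.37e-06). ANKRD37, an ankyrin repeat gene induced by HIF-1, had a like order at low counts, with the combination above vehicle. It stood at 1.92, 1.65, 1.70 and 1.5 CPM with vehicle, 2.85, 2.85 and 3.22 with chloroquine, 1.21, 1.29 and 1.2 with 5-FU and 2.55, 2.02 and 2.80 with both. Its rise with chloroquine was 0.81 ± 0.156 (adjusted p = 0.000938) and that in the combination against 5-FU 0.99 ± 0.171 (adjusted p = 0.000415). The fall with 5-FU (-0.46 ± 0.166, adjusted p = 0.0387) was lost in 10 of 25 other fits, among them those without vehicle replicate 1 or 3 or any one 5-FU replicate. The rise of ANKRD37 in the combination against vehicle (0.54 ± 0.157, adjusted p = 0.00937) was 0.43 and did not pass without combination replicate 3. The gene overlaps UFSP2. MIR210HG, the host transcript of a microRNA that hypoxia induces, was at 0.285 to 0.516 CPM with vehicle and 0.0399 to 0.145 with 5-FU (-2.02 ± 0.507, adjusted p = 0.00316), and its mean over all 13 libraries was 6.77 counts.

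ADM, the vasodilator peptide adrenomedullin, rose with each drug and with both. Its levels were 6.98, 8.05, 8.03 and 7.17 CPM with vehicle, 12.6, 13.2 and 11.8 with chloroquine, 15.2, 13.6 and 13.8 with 5-FU and 13.9, 12.9 and 16.5 in the combination. All 9 treated libraries lay above the vehicle libraries, by 0.73 ± 0.0938 (adjusted p = 3.53e-05), 0.91 ± 0.0922 (adjusted p = 1.03e-06) and 0.93 ± 0.0920 (adjusted p = 9.41e-07). Between the combination and 5-FU alone the difference was 0.03 ± 0.0928 (adjusted p = 0.860), which did not pass. KDM3A, a histone demethylase that HIF-1 induces, rose with chloroquine alone, at 77.9, 78.6, 79.5 and 87.2 CPM with vehicle, 121, 125 and 116 with chloroquine, 81.8, 85.8 and 84.7 with 5-FU and 84.1, 85.6 and 73.6 with both. The rise with chloroquine was 0.58 ± 0.0602 (adjusted p = 5.70e-06), while the combination differed from vehicle by 0.00 (adjusted p = 0.956).

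The collagen prolyl hydroxylase subunits P4HA1 and P4HA2 both rose with chloroquine and differed with 5-FU. P4HA1 was at 79.7, 81.5, 80.1 and 75.1 CPM with vehicle, 106, 105 and 116 with chloroquine, 53.7, 56.5 and 54.0 with 5-FU and 63.3, 62.9 and 60.7 with both. It rose with chloroquine (0.46 ± 0.0507, adjusted p = 9.55e-06) and fell with 5-FU (-0.53 ± 0.0524, adjusted p = 7.62e-07) and with both (-0.34 ± 0.0520, adjusted p = 5.84e-05). The last 2 values came to -0.34 and -0.20 under library size alone. P4HA2 was highest in the combination, at 36.8, 36.0 and 39.7 CPM against 26.7, 26.0, 23.7 and 23.1 with vehicle (0.59 ± 0.0815, adjusted p = 2.38e-05). Its rise with chloroquine (0.28 ± 0.0833, adjusted p = 0.0152) did not pass without chloroquine replicate 1 (0.27) or 3 (0.23) or in the 8 libraries (0.31). The rise with 5-FU (0.21 ± 0.0831, adjusted p = 0.0409), 0.40 under library size alone, was lost in 12 of the 25 other fits, among them those without 5-FU replicate 1 (0.11) or 3, vehicle replicate 3 or 4, any 1 chloroquine replicate, or combination replicate 1 or 2. BNIP3 and BNIP3L are mitophagy receptors. BNIP3 went from 101 ± 2.08 CPM with vehicle to 80.9 ± 7.69 with 5-FU (-0.32 ± 0.0670, adjusted p = 0.000746). Pseudogenes named for BNIP3 held 26.0% of the summed counts. BNIP3L rose with chloroquine (0.28 ± 0.0682, adjusted p = 0.00452) and passed with neither 5-FU nor both.

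**Figure D4:**
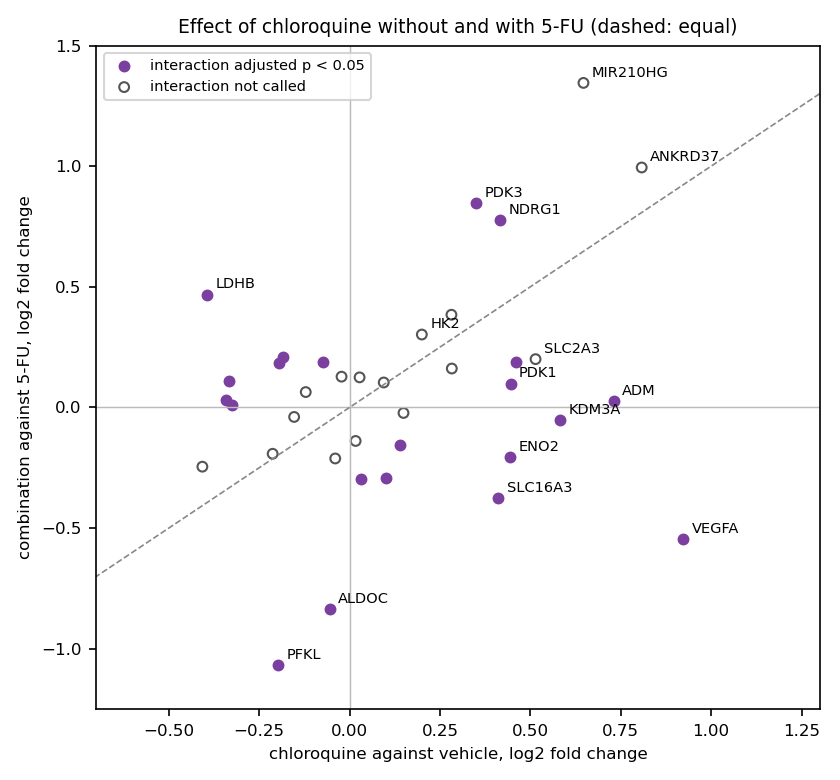
Log2 fold change of each of the 37 genes for chloroquine against vehicle (horizontal axis) and for the combination against 5-FU (vertical axis); filled points passed the interaction test, and the dashed line marks equal effects. VEGFA lies farthest to the lower right (0.92 and -0.54), PFKL and ALDOC lie below the line near 0 on the horizontal axis, and LDHB lies in the upper left (-0.39 and 0.47).

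The interaction asks whether chloroquine had the same effect with 5-FU as without it, and it passed for 21 of the 37 genes, 9 with a more positive and 12 with a more negative effect in the presence of 5-FU. Among all tested genes 39.9% were called, 20.6% more positive and 19.3% more negative, and the median over the 37 genes was 0.02. VEGFA had the largest difference, -1.47 ± 0.116 (adjusted p = 7.08e-07), from a rise with chloroquine alone to a fall on top of 5-FU. For PFKL it was -0.87 ± 0.159 (adjusted p = 0.000666) and for ALDOC -0.78 ± 0.119 (adjusted p = 0.000160), and both fell on top of 5-FU without passing for chloroquine alone. For ADM, ENO2 and KDM3A it was -0.70 ± 0.132 (adjusted p = 0.000793), -0.65 ± 0.0960 (adjusted p = 0.000123) and -0.64 ± 0.0887 (adjusted p = 7.99e-05). All 3 rose with chloroquine alone, and on top of 5-FU their changes were 0.03, -0.21 and -0.05, of which that of ENO2 passed. The fall of ENO2 on top of 5-FU was lost in 6 of 26 other fits. Among them were the fit with replicate numbers taken as pairs and those without 5-FU replicate 1 or 3 or combination replicate 2. In the opposite direction, the difference was 0.86 ± 0.162 (adjusted p = 0.000789) for LDHB, 0.44 ± 0.0832 (adjusted p = 0.000827) for ENO1 and 0.39 ± 0.0587 (adjusted p = 0.000133) for LDHA. It was 0.38 ± 0.0582 (adjusted p = 0.000169) for PGK1 and 0.37 ± 0.0594 (adjusted p = 0.000215) for PGAM1. These 5 genes fell with chloroquine alone, and on top of 5-FU their changes were 0.47, 0.11, 0.21, 0.18 and 0.03. Under library size alone the differences of LDHA, PGK1 and PGAM1 came to 0.25, 0.24 and 0.23. PDK3 rose in both settings and more with 5-FU, by 0.50 ± 0.106 (adjusted p = 0.00190).

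In all 24 other fits of the interaction 12 of these 21 calls held, namely PFKL, ALDOC, PGK1, PGAM1, ENO1, ENO2, LDHA, LDHB, PDK3, VEGFA, ADM and KDM3A. The other calls were SLC2A1, SLC16A3, PFKFB3, PDK1, EGLN3, P4HA1, HIF1A, GAPDH and NDRG1, and each was lost in at least 1 fit. In the 8 libraries without tissue transcripts the calls of SLC2A1, SLC16A3, PDK1, EGLN3, HIF1A and NDRG1 were lost. With library size alone, 6 were more positive and 14 more negative, with a median of -0.14 over all genes, and GAPDH (0.19), HIF1A (0.12) and NDRG1 (0.22) did not pass.

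Other genes of the pathway, listed by function, moved in both directions. Of 38 tested genes in a list of other glycolysis and pyruvate genes (51 listed), 10 rose and 16 fell with 5-FU, 11 rose and 14 fell with chloroquine, and 9 rose and 8 fell in the combination against 5-FU. Of all tested genes, 60.3%, 39.4% and 38.5% were called in these comparisons, and the 17 of 38 called in the last lay close to that share. The medians were -0.16, 0.03 and 0.09. With 5-FU the testis lactate dehydrogenase LDHC rose from 6.27 ± 0.497 to 13.7 ± 1.23 CPM (log2 1.13 ± 0.0835, adjusted p = 4.56e-08). The gluconeogenic PCK2 fell from 8.91 ± 0.634 to 3.37 ± 0.543 CPM (log2 -1.41 ± 0.139, adjusted p = 7.59e-07; SD, n = 4 and 3). EMB, a partner protein of lactate carriers, fell as well (-1.02 ± 0.0877, adjusted p = 1.98e-07). The muscle enolase ENO3 rose with 5-FU (0.92 ± 0.119, adjusted p = 1.08e-05) and with chloroquine (0.88 ± 0.120, adjusted p = 5.81e-05) and was lower in the combination than with 5-FU (-1.17 ± 0.129, adjusted p = 1.01e-05), as ALDOC was. Chloroquine lowered PDHB, a subunit of pyruvate dehydrogenase (-0.60 ± 0.0513, adjusted p = 1.10e-06), and the mitochondrial phosphatase PGAM5 (-0.69 ± 0.0681, adjusted p = 3.96e-06). TIGAR, a p53 target that lowers fructose 2,6-bisphosphate, was 19.1 ± 2.14 CPM with vehicle, 22.2 ± 4.14 with chloroquine, 28.4 ± 2.34 with 5-FU and 45 ± 2.60 with both. It rose in the combination against 5-FU (0.67 ± 0.114, adjusted p = 0.000399).

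Of 24 tested regulators of HIF (26 listed), 6 rose and 13 fell with 5-FU, 3 rose and 7 fell with chloroquine, and 9 rose and 4 fell in the combination against 5-FU, with medians of -0.22, -0.11 and 0.13. The 10 of 24 called with chloroquine lay close to the 39.4% of all genes, where the shares for the other comparisons were 60.3% and 38.5%. EPAS1, which encodes the HIF-2 subunit, was 50.7 ± 0.439 CPM with vehicle and 23.9 ± 1.92 with 5-FU (-1.08 ± 0.0668, adjusted p = 8.04e-09), and 30.9 ± 2.05 in the combination (0.37 ± 0.0713, adjusted p = 0.000970 against 5-FU). The hydroxylase EGLN2 rose with 5-FU (1.28 ± 0.120, adjusted p = 4.89e-07) and was lower in the combination than with 5-FU (-1.32 ± 0.129, adjusted p = 3.95e-06). HSP90AB1, a chaperone that stabilises the HIF1A protein, fell with 5-FU (-1.09 ± 0.0577, adjusted p = 1.75e-09) and with chloroquine (-0.77 ± 0.0571, adjusted p = 3.51e-07). VHL is the ligase subunit that marks HIF1A for breakdown. Its RNA was 144 ± 16.8 CPM with vehicle, 101 ± 8.35 with 5-FU and 131 ± 12.1 with both. VHL rose in the combination against 5-FU (0.37 ± 0.106, adjusted p = 0.0126), to a mean below that of vehicle.

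Of 52 other hypoxia targets tested (55 listed), 23 rose and 6 fell with chloroquine, 16 rose and 21 fell with 5-FU, and 18 rose and 10 fell in the combination against 5-FU. Of all genes 20.3% rose and 19.1% fell with chloroquine, 30.8% and 29.5% with 5-FU, and 20.2% and 18.3% in the last comparison. The medians were 0.18, -0.17 and 0.13, where those of all genes were 0.02, 0.01 and 0.02. Chloroquine raised BHLHE40, a clock-related repressor, from 15.3 ± 1.23 to 47.5 ± 0.343 CPM (1.63 ± 0.0669, adjusted p = 2.77e-09). It raised MAFF, a small Maf factor, from 1.66 ± 0.355 to 4.23 ± 0.394 CPM (1.34 ± 0.154, adjusted p = 1.42e-05) and lowered ARRDC3 (-0.81 ± 0.0997, adjusted p = 2.51e-05). With 5-FU the transferrin receptor TFRC fell from 705 ± 17 to 231 ± 16.2 CPM (-1.61 ± 0.0538, adjusted p = 2.55e-11). The adenylate kinase AK4 fell from 83.4 ± 3.69 to 36.3 ± 0.372 CPM (-1.20 ± 0.0508, adjusted p = 2.10e-10). The lipid droplet protein PLIN2 rose (1.24 ± 0.0687, adjusted p = 2.89e-09), as did the ephrin EFNA1 (1.27 ± 0.116, adjusted p = 3.67e-07). In the combination TFRC was above 5-FU (1.00 ± 0.0555, adjusted p = 3.07e-08), as was the secreted glycoprotein STC2 (0.60 ± 0.0543, adjusted p = 2.00e-06). PPFIA4 (-1.34 ± 0.101, adjusted p = 4.33e-07) and EFNA1 (-0.75 ± 0.121, adjusted p = 0.000244) were below it. These values, like those of the 38 genes, are RNA levels; neither lactate nor glucose use was measured.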

How the data were processed

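The file is a table of whole-number counts, which the authors deposited with human symbols as gene names; library preparation used a directional kit, per the labels' protocols. DESeq and GRCm38, a mouse build, are named in the submitters' processing notes. Not given in the sources used here: aligner, counter, annotation and strand setting. Counts were filtered with filterByExpr of edgeR 4.0.16 (R 4.3.3), which kept at least 99.84% of each library, scaled by TMM and fitted in 1 quasi-likelihood model with a mean per group over 13 libraries. In each of 6 comparisons a call is a p-value under 0.05 after Benjamini-Hochberg adjustment over all genes tested; CPM are TMM-scaled. Lengths are merged exons of GENCODE 29, and promoters come from RefSeq. Libraries with at least 100 counts of COL1A2 formed the kind with tissue transcripts, chosen after the data were seen. The 38 genes and the lists were chosen with earlier results of these data known. All 38 genes are described; from the 3 other lists, named genes are among the called ones with the 2 largest rises and 2 largest falls in each of 3 comparisons, at a mean log2 CPM of at least 1. The script was tested on simulated data. DESeq2 1.42.0 and limma 3.58.1 served as alternatives.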

Additional observations from a re-analysis of the deposited data

Results flagged for a closer look

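Among the 4 vehicle libraries, 38 sets of values (the 37 tested genes and the enzyme share) were checked for a library whose gap to its nearest neighbour was large against the range. Chance flags about 1 set in 20, and 4 were flagged. HK2 stood at 114 CPM in vehicle replicate 2, with the other vehicle libraries at 105 to 107 CPM, and SLC2A3 at 3.65 CPM in the same library, with the others at 2.78 to 2.92 CPM. KDM3A stood at 87.2 CPM in vehicle replicate 4, with the others at 77.9 to 79.5 CPM. The 17 enzyme genes took 0.92% of the counts in vehicle replicate 4, the vehicle library with tissue transcripts, and 0.94% in each of the other 3.

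For 21 genes the effect of chloroquine with 5-FU differed from its effect without 5-FU by the interaction test of edgeR (adjusted p under 0.05). It was more negative with 5-FU, on the log2 scale, for VEGFA (-1.47), PFKL (-0.87), SLC16A3 (-0.79), ALDOC (-0.78), ADM (-0.70), ENO2 (-0.65), KDM3A (-0.64), EGLN3 (-0.39), PDK1 (-0.35), PFKFB3 (-0.33), SLC2A1 (-0.30) and P4HA1 (-0.27). It was more positive for HIF1A (0.26), GAPDH (0.33), NDRG1 (0.36), PGAM1 (0.37), PGK1 (0.38), LDHA (0.39), ENO1 (0.44), PDK3 (0.50) and LDHB (0.86).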

How the results depend on the processing

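Over the alternatives run, the number of the 38 genes called stayed within 1.5 times the reported one in all 6 comparisons. It was 16, 31, 26, 18, 22 and 15 in the 8 libraries without tissue transcripts (in the order chloroquine, 5-FU and combination against vehicle, combination against 5-FU, combination against chloroquine, interaction). In the 5 with them it was 27, 29, 28, 17, 29 and 25, but there the vehicle, 5-FU and combination groups have 1 library each and the spread rests on 2 chloroquine libraries, so these counts say nothing of stability. With the replicate block over all libraries the counts were 22, 32, 27, 18, 26 and 20. In 5-FU and the combination alone, where the numbers were taken as pairs though no label gives a pairing, the replicate block gave 12. In the 8 libraries, 4396 of all genes were called for chloroquine against vehicle, where 7682 were called in all 13. HIF1A in the combination against vehicle was 0.0024 under library size alone (adjusted p = 0.978), against -0.15. Depth limits CA9, MIR210HG, ANKRD37 and SLC16A3. No alternative planned was left out.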
